A study of Mus musculus with 4 samples.

Results

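The type I interferon-stimulated genes are a list of 38 mouse genes that cells switch on after interferon alpha or beta has reached them. Members were found by gene symbol among the 32285 genes of the count tables, and 36 of the 38 had a row. The other two, Mx1 and Mx2, were not analysed here. The 36 genes were followed through every cell class of 4 single-cell RNA sequencing libraries, each made from subcutaneous tumors of MC38, a mouse colon adenocarcinoma line, grown in C57BL/6 mice aged 6 to 8 weeks. The line carried either wild-type Rac1 (WT) or a homozygous A159V knock-in at the endogenous Rac1 locus (A159V), and the mice received an isotype control IgG or anti-PD1, an antibody that blocks a checkpoint receptor of T cells. Each of the 4 combinations of genotype and antibody was 1 library, named here by both, as in WT IgG. The knock-in data were described by the study as coming from 1 clone unless otherwise specified, so genotype and clone cannot be told apart. The immune and non-immune cells were separated on CD45 beads and remixed before loading, so the share of each class in a library was partly set by hand. How many mice went into each library is not given in the sources used here.

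Type I interferons are secreted when a cell detects foreign or misplaced nucleic acid. They bind the receptor pair IFNAR1 and IFNAR2, the attached kinases JAK1 and TYK2 become active, and the complex ISGF3, which includes STAT2 and IRF9, forms. The complex binds a short DNA element, the interferon-stimulated response element, in front of its target genes. The targets sense viral RNA and DNA, degrade RNA, block translation or virus entry, and feed back on the pathway. In tumors the program is seen in myeloid, lymphoid, stromal and malignant cells alike. Interferon gamma, made by T and NK cells, signals through another receptor, and its targets partly overlap with the list.

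The libraries held 7430 to 9311 cell barcodes and 54402632 to 125227747 unique molecular identifiers (UMIs, 1 per captured RNA molecule) in all. WT anti-PD1 held the fewest of both. After removal of cells under 500 detected genes and of predicted doublets, 6433 to 8218 cells a library remained, with a median of 3338 to 4164 UMIs. The median per cell was 4153 UMIs in WT anti-PD1 and 4164 in WT IgG, so the cells of WT anti-PD1 were not the shallowest. Pairs of libraries shared 13 to 22 cell barcodes. The cells were put into classes by marker genes, none of them a member, and each class is called "-like" for that reason. The submitters label the material as adenocarcinoma, but it held immune and stromal cells as well. The tumor-like class was recognised by Rhox5, found in 99.3% of its cells, and Prl2c2, found in 80.2%, while the epithelial markers Krt8 and Epcam were found in 0.71% and 0.19% of them. WT anti-PD1 held only 27 tumor-like cells against 1918 in WT IgG and, with the knock-in, 2775 under IgG and 2076 under anti-PD1, and its tumor-like cells were not described. It also held 1674 fibroblast-like cells against 161 to 184 in the other libraries, and 158 monocyte-like cells against 1411 to 1932.

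With 1 library a group, no difference could be set against the spread between tumors, and no test was made. Levels are given as UMIs of a gene per 1000000 UMIs of the same class and library (CPM). The assay counts each molecule once from its 3′ end, and reads in introns were counted as well according to the study's methods. Levels of different genes can be set side by side only within the limits of capture. An effect of gene length was not tested. Differences are log2 ratios with 1 CPM added to each side. Intervals are 95% intervals from counting error alone, by the Poisson distribution, and hold no biological error. A member was counted as higher or lower when it passed a 2-fold difference and had at least 30 CPM and 10 UMIs in 1 of the compared libraries, and beside the counts for a class stands the percentage of all genes that passed the same rule there. Counts of pairs over several classes are read against the share of all pairs of a gene and a class. Where 4 values follow each other, they run from WT IgG and WT anti-PD1 to the A159V libraries, IgG again before anti-PD1. In tumor-like cells the 3 values leave out WT anti-PD1.

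ISGF3 acts on the promoters of its targets, so 5 upstream stretches that contrast in motif and in response are shown. RefSeq windows from 250 bases before to 50 bases after the start site existed for 29 of the 36 members. The motif searched was the core of the interferon-stimulated response element, GAAA followed by any 2 bases and GAAA again, on both strands and with overlapping matches counted. It was found in a window of 17 of the 29 members (58.6%), against 3.99% of all 27025 genes with a window. Isg15, Ifit3 and Stat2 held it, and Irf7 and Irf9 did not. The 250 bases upstream of each start site are printed 5′ to 3′ on the gene's strand in build GRCm38.p6, with every base that belongs to a match in capitals. The positions are chr4:156200819-156201068 on the minus strand for Isg15, chr19:34583279-34583528 on the plus strand for Ifit3, chr10:128270248-128270497 on the plus strand for Stat2, chr7:141266425-141266674 on the minus strand for Irf7 and chr14:55603735-55603984 on the plus strand for 1 of the 2 windows of Irf9.
Isg15: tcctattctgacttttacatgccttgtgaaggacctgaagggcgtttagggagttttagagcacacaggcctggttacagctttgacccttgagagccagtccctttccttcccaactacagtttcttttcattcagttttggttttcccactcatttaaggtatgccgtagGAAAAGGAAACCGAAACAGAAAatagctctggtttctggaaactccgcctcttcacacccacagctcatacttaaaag
Ifit3: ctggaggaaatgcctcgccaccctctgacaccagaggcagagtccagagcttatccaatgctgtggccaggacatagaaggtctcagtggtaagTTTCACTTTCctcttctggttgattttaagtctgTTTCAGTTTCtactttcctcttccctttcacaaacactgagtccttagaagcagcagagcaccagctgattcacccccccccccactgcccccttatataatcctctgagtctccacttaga
Stat2: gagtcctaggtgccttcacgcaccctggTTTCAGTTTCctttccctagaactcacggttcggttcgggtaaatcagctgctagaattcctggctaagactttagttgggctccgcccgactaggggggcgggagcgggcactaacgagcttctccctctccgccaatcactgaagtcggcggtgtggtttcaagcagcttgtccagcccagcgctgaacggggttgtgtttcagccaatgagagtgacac
Irf7: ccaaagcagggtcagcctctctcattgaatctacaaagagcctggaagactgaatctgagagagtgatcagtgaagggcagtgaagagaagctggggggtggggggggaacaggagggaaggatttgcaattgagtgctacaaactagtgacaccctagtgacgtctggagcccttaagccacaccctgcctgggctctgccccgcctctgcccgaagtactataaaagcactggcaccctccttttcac
Irf9: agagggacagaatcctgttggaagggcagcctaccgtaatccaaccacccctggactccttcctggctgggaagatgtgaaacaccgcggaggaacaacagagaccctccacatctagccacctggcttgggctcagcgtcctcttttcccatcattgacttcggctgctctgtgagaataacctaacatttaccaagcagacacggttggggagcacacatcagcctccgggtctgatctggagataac
In Isg15 the 3 matches overlapped and lay between 78 and 57 bases before the start. A match is a match of letters and not a measured binding site, and a window without one says nothing about the factor. Windows with the motif also belonged to the 2 pairs of related genes Ifit3 and Ifit3b, and Oas1a and Oas1g, which were counted as separate genes. Whether reads that fit both genes of a pair were lost or misassigned was not tested. Of the 36 members, 20 lay in 7 groups of neighbors at most 1 Mb apart. The largest group was the IFIT cluster on chromosome 19, where Ifit2, Ifit3, Ifit1bl1, Ifit3b and Ifit1 lay between 34550694 and 34650009, a span of 99.3 kb.

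Members were detected in all classes, and the level differed by class. Summed over the 36 members, monocyte-like cells had 26204, 12284, 28294 and 20428 CPM and neutrophil-like cells had 25938, 7480.3, 25663 and 21544 CPM. Macrophage-like cells followed with 14116, 4622, 12089 and 9703 CPM. NK-like cells had 2452, 1207, 2891 and 2928 CPM. Among classes with enough cells for a level, NK-like cells were lowest in WT IgG, WT anti-PD1 and A159V IgG. In A159V anti-PD1 the B or plasma-like cells were lower, with 2526 CPM on 51 cells. Monocyte-like cells thus had 10.7, 10.2, 9.79 and 6.98 times the summed level of NK-like cells. Mature DC-like cells, dendritic cells marked by Ccr7 and Ccl22, had 11634, 3038, 9582 and 8537 CPM. Among lymphocytes, CD4 T-like and Foxp3-marked Treg-like cells stood above CD8 T-like cells in WT IgG, A159V IgG and A159V anti-PD1. Their summed levels were 12638, 2945, 13484 and 7966 CPM in CD4 T-like, 11596, 2827, 12799 and 8904 CPM in Treg-like and 7123, 2914, 7001 and 6010.3 CPM in CD8 T-like cells. In WT anti-PD1 the 3 T subsets lay between 2827 and 2945 CPM, close to one another. Fibroblast-like cells had 8561, 2799, 9077 and 6053 CPM and tumor-like cells had 7242, 6604 and 6470.0 CPM.

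**Figure D1:**
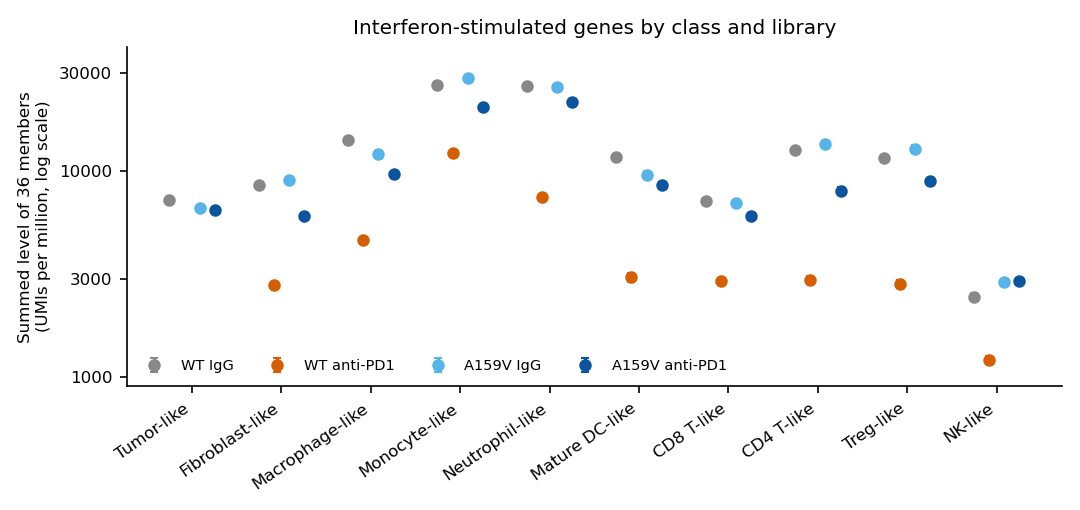
Summed level of the 36 interferon-stimulated genes in CPM on a log axis by cell class, 1 point per library; bars are 95% Poisson intervals. WT anti-PD1 has the lowest point in each of the 9 non-overlapping classes that have all 4 libraries.

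Different members made up the sum in different classes. In Treg-like cells of WT IgG, Ifi27l2a, a gene of the Ifi27 family of small membrane proteins, made up 49.8% of all member UMIs. Its level there was 5773, 917, 5172 and 4316 CPM, and in NK-like cells it was 141, 24.3, 226 and 124 CPM. In tumor-like cells the leading members were Bst2, which codes for the virus-tethering protein tetherin, at 1824, 2055 and 1865 CPM and Ifitm3, a blocker of virus entry, at 2148, 1537 and 1575 CPM. Together they made up 54.8%, 54.4% and 53.2% of the member UMIs there. Ifitm3 alone made up 29.6%, 30.5%, 31.0% and 33.1% of member UMIs in fibroblast-like cells. In neutrophil-like cells Isg15, a ubiquitin-like modifier, and Rsad2, which codes for the antiviral enzyme viperin, were the top pair in WT IgG and both A159V libraries. In WT anti-PD1 Oasl2 led there with 10.6% of member UMIs, and Rsad2 was behind Isg15 and Ifitm3 with 8.87%. Rsad2 had 2621, 663, 3585 and 3340.4 CPM there against 104, 28.8, 108 and 90.5 CPM in T-like cells. Slfn5 and Slfn1, members of the schlafen family of growth and RNA regulators, were nearly absent from tumor-like cells, at 2.74, 6.97 and 7.03 CPM and 3.17, 4.91 and 4.68 CPM, while Slfn5 had 1094, 673, 1196 and 993 CPM in monocyte-like cells.

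The first comparison asked what anti-PD1 treatment went with in WT tumors. Relative to WT IgG the summed level of the members was lower in WT anti-PD1 in each of the 9 classes that could be compared, though not every member was lower. Over the 9 non-overlapping classes, 294 pairs of a member and a class met the minimum, 228 of them (77.6%) were lower by 2-fold or more, and 0 were higher by 2-fold or more. Of all pairs of a gene and a class, 8.75% were lower and 10.3% higher by the same rule. The log2 ratio of the summed level was -1.61 (-1.63 to -1.59) in fibroblast-like, -1.61 (-1.63 to -1.59) in macrophage-like and -1.09 (-1.13 to -1.06) in monocyte-like cells. It was -1.79 (-1.85 to -1.74) in neutrophil-like, -1.94 (-2.03 to -1.85) in mature DC-like and -1.02 (-1.11 to -0.94) in NK-like cells. Among T subsets it was -1.29 (-1.33 to -1.24) in CD8 T-like, -2.10 (-2.18 to -2.02) in CD4 T-like and -2.04 (-2.11 to -1.96) in Treg-like cells. With classes taken from clusters, monocyte-like cells had 27 of 36 members lower and a median member log2 ratio of -1.53, against 20 of 36 and -1.03 by markers.

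The counts by class stood above the share of all genes. Fibroblast-like cells had 27 of 30 members lower, with 5.94% of all genes lower. Macrophage-like cells had 31 of 36 lower (6.57% of all genes), and monocyte-like cells had 20 of 36 lower (5.41%). In neutrophil-like cells 26 of 32 were lower (12.2%), and in mature DC-like cells 32 of 35 (13.5%). T-like cells as a whole had 26 of 34 lower (6.51%). Within them, 18 of 33 were lower in CD8 T-like cells (8.33%), 35 of 35 in CD4 T-like cells (8.26%) and 28 of 34 in Treg-like cells (12.6%). NK-like cells had 11 of 23 lower (7.1%). The median member log2 ratio ran from -2.43 in CD4 T-like cells to -0.93 in NK-like cells, while the median of all genes ran from -0.08 to 0.36 over these classes.

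**Figure D2:**
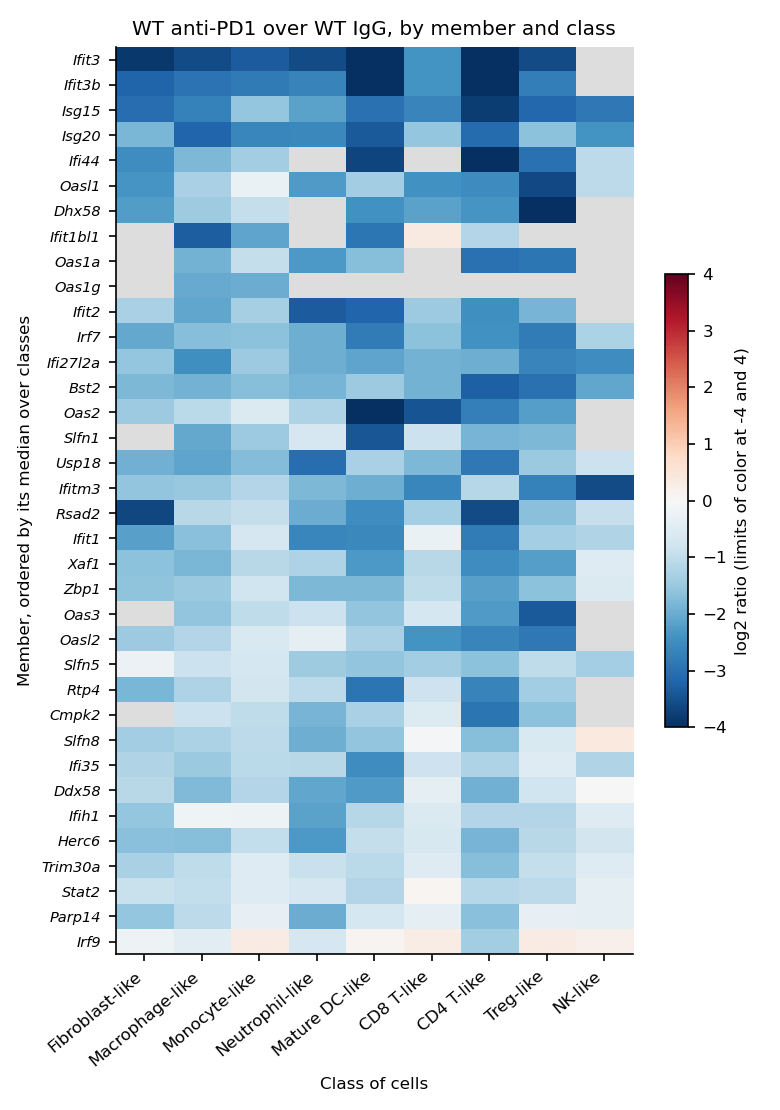
Log2 ratio of WT anti-PD1 over WT IgG for each of the 36 members (vertical axis) in each class (horizontal axis), on a color scale centered on 0; gray cells are below 30 CPM or 10 UMIs in both libraries. Ifit3, Ifit3b and Isg15 are the most strongly lowered members across classes, and Irf9 stays near 0 in most of them.

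The IFIT genes, whose proteins bind viral RNA and block its translation, had 35 of 38 pairs of member and class lower. Ifit3 had a median log2 ratio of -3.59 over 8 classes and was lower in 8 of 8. Its level was 801, 79.7, 916 and 434 CPM in monocyte-like cells, 378, 30.4, 260.3 and 158 CPM in macrophage-like cells and 208, 13.5, 175 and 101 CPM in fibroblast-like cells. WT anti-PD1 was the low library in each of them, and A159V anti-PD1 was second lowest. The log2 ratio of Ifit3 was -3.31 (95% interval -3.72 to -2.90) in monocyte-like and -3.59 (95% interval -3.79 to -3.40) in macrophage-like cells. Ifit3b, its near-identical copy, had 0 UMIs in mature DC-like cells of WT anti-PD1 and was at least 6.87-fold lower there than in WT IgG, with 3 counts as the floor for that library. Ifit2 was lower in 8 of 8 classes, with 966, 96, 601 and 549 CPM in neutrophil-like cells. Ifit1 was lower in 7 of 9 classes, and its level in neutrophil-like cells was 1462, 241, 1402 and 1059 CPM. In CD8 T-like cells Ifit1 had 99.8, 83.2, 96.6 and 114 CPM, with a log2 ratio of -0.26 (95% interval -0.57 to 0.05). Ifit1bl1, a further gene of the cluster, had 30 against 1066 UMIs in monocyte-like cells, a log2 ratio of -2.10, but in CD8 T-like cells its ratio was 0.36 (95% interval -0.07 to 0.80).

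Within the ISG15 system 22 of 27 pairs were lower. Isg15 was lower in 9 of 9 classes, with a median of -2.87. Its level in macrophage-like cells was 1332, 205, 1074 and 742 CPM, in monocyte-like cells 2481, 841, 2706 and 1763 CPM and in neutrophil-like cells 3332, 762, 3046 and 2723 CPM. In T-like cells it was 477, 58.4, 491 and 325 CPM and in CD4 T-like cells 779.8, 54.8, 982 and 356 CPM. The library order was not the same throughout, but WT anti-PD1 was the lowest library in each of these 5 classes. Usp18, which removes ISG15 from proteins and dampens the receptor, was lower in 8 of 9 classes. Herc6, the mouse ligase that attaches ISG15, was lower in 5 of 9, with 138, 83.2, 138 and 127 CPM in NK-like cells.

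Enzymes of the OAS family make the second messenger that turns on RNA decay. Counted with Oasl1, which has another role, and with the exonuclease Isg20, the family had 42 of 49 pairs lower. Isg20 was lower in 9 of 9 classes, with 347, 55.9, 437 and 224 CPM in monocyte-like cells. Oas3 had 209.8, 103, 211 and 174 CPM in monocyte-like cells and 60.7, 5, 68.4 and 34.8 CPM in Treg-like cells, and was lower in 5 of the 7 classes in which it met the minimum. In Treg-like cells the WT anti-PD1 value of Oas3 rested on 3 UMIs against 29, a log2 ratio of -3.36 (95% interval -4.82 to -1.91). Oas2 had 33.1, 2.08, 45.1 and 25 CPM in CD8 T-like cells, the lowest log2 ratio of that class at -3.47 (95% interval -4.49 to -2.45). Oasl1, a translational brake on Irf7, was lower in 8 of 9 classes, the exception being monocyte-like cells with a log2 ratio of -0.28 (95% interval -0.43 to -0.12). Its relative Oasl2 had 1028, 795, 670.1 and 666 CPM in neutrophil-like cells, one of the smallest differences there, and 71.9, 13, 67.6 and 51.4 CPM in CD8 T-like cells. Oas1a was lower in 5 of 6 classes. Oas1g met the minimum in macrophage-like and monocyte-like cells alone and was lower in both.

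The membrane proteins had 24 of 26 pairs lower. Bst2 and Ifitm3 were each lower in 9 of 9 classes. Bst2 had 1026, 279, 1003 and 715 CPM in macrophage-like cells and 795, 82.1, 988 and 434 CPM in CD4 T-like cells. Ifitm3 had 4425, 1956, 4626 and 3700.4 CPM in monocyte-like cells and 218, 17.5, 406 and 332 CPM in NK-like cells. In NK-like cells the ratio of Ifitm3 was the lowest of all members, -3.56 (95% interval -4.08 to -3.05). Rtp4, a receptor-transporting protein with antiviral activity, was lower in 6 of 8 classes. Rsad2 was lower in 7 of 9 classes and reached -3.64 (95% interval -3.85 to -3.42) in fibroblast-like cells, where its level was 148, 11, 81.9 and 30.9 CPM. Cmpk2, its neighbor on chromosome 12 and a nucleotide kinase, was lower in 5 of 7. Cmpk2 had 112, 60.9, 78.1 and 70.8 CPM in macrophage-like cells.

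Members that sense nucleic acid or carry the signal differed less in part. The sensors Ddx58 (RIG-I), Ifih1 (MDA5), Dhx58 (LGP2) and Zbp1, which binds Z-form nucleic acid, had 24 of 34 pairs lower. Ifih1 was 474, 424, 333 and 310.3 CPM in macrophage-like cells, a log2 ratio of -0.16 (95% interval -0.24 to -0.08), but 793, 181, 649 and 643 CPM in neutrophil-like cells. Ddx58 in NK-like cells was 93.6, 93.4, 78.3 and 115 CPM. Dhx58 was lower in 6 of 7 classes, and in Treg-like cells it had 1 UMI against 20, a log2 ratio of -4.01 (95% interval -5.88 to -2.13). Zbp1 was lower in 7 of 9 classes, with 284, 101, 218 and 214 CPM in macrophage-like and 274, 86.7, 294 and 251 CPM in Treg-like cells.

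Of the transcription factors, 13 of 27 pairs were lower, and the 3 genes were unlike each other. Irf7, the factor that amplifies interferon production, was lower in 9 of 9 classes, with 1029, 332, 1002 and 601 CPM in monocyte-like and 370.0, 52.9, 223 and 194 CPM in mature DC-like cells. Stat2 was lower in 3 of 9 classes. It had 238, 119, 212 and 202 CPM in macrophage-like cells, with a log2 ratio of -1.0 (95% interval -1.13 to -0.87), and 78.7, 83.7, 95 and 107 CPM in CD8 T-like cells. Irf9, the DNA-binding part of ISGF3, was lower in 1 of 9 classes, CD4 T-like cells, and its median log2 ratio was 0.11. In macrophage-like cells Irf9 had 87.5, 65.2, 77 and 73.7 CPM, and in Treg-like cells it had 77.5, 98.4, 82.1 and 115 CPM on 37, 59, 12 and 43 UMIs. The members whose promoters are printed above thus did not sort by motif. Over all members with a window, the median log2 ratio was -1.66 with the motif and -1.73 without it.

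The remaining members had 39 of 52 pairs lower. Ifi27l2a was lower in 9 of 9 classes, with 1981, 359.8, 1732 and 1144 CPM in macrophage-like and 4934, 1275, 4299.6 and 2704 CPM in CD4 T-like cells. Ifi44, a member of a family of interferon-induced antiviral proteins, had 0 UMIs against 13 in CD4 T-like cells, at least 11.2-fold lower with a floor of 3 counts for that library. Xaf1, a promoter of cell death, was lower in 8 of 9 classes. Ifi35, which binds the interferon-induced protein Nmi, was lower in 7 of 9. Trim30a, a regulator of NF-kappaB signaling, and Parp14, an ADP-ribosyl transferase, were each lower in 4 of 9. Parp14 had 335, 265, 369 and 436 CPM in Treg-like cells. The schlafens had 17 of 25 pairs lower, and Slfn8, which may share reads with close relatives, had a ratio of 0.40 (95% interval -0.06 to 0.86) in NK-like cells.

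**Figure D3:**
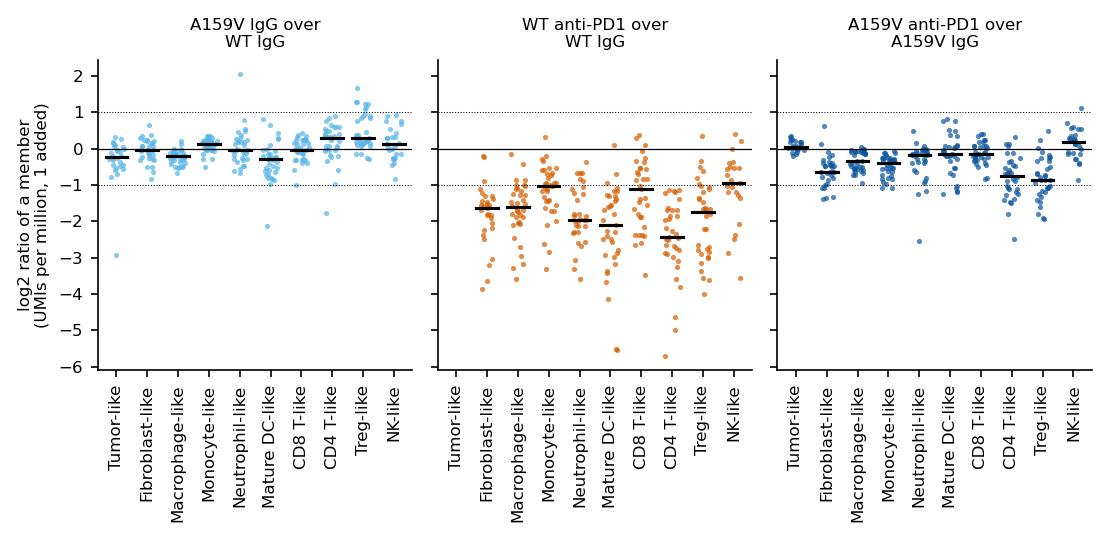
Log2 ratios of the members that met the minimum, 1 point per member, by class, for the 3 comparisons; the black bar is the median of the members and dashed lines mark a 2-fold difference. The median is -0.93 or lower in every class where the WT libraries are compared, and lies between -0.86 and 0.29 in the comparisons that involve A159V.

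Other measures moved between the same libraries. Fibroblast markers (9 genes, all of them above 0 in WT anti-PD1) summed to 38.7, 676, 44.4 and 84.1 CPM in T-like cells, 38, 654, 35.9 and 56.6 CPM in NK-like cells and 60.2, 703, 47.4 and 91.2 CPM in macrophage-like cells. Monocyte markers (9 genes, Plac8 and Ly6c2 among them, some of which lymphocytes also express) summed to 1837, 809, 1609.8 and 1618 CPM in macrophage-like, 1006, 372, 906 and 1172 CPM in mature DC-like and 1628, 863, 2259 and 972 CPM in neutrophil-like cells. The sum was 2159.7, 1277, 2712 and 2545 CPM in fibroblast-like and 2002, 1197, 2545 and 1769.6 CPM in NK-like cells, so that WT anti-PD1 was the lowest library in these 5 classes, as for the members. It was 2628, 2559.8, 2648 and 2726 CPM in CD8 T-like, 1015, 1138, 1532 and 1185 CPM in CD4 T-like and 783, 874, 2531 and 1144 CPM in Treg-like cells, and WT anti-PD1 was above WT IgG in the last 2 of these. Tumor markers (10 genes) summed to 42.5, 3.11, 92.6 and 57.7 CPM in macrophage-like cells. The part of these in the differences of the members was not tested. Cells that carried at least 2 markers of another class were then removed. Only tumor, fibroblast, macrophage, neutrophil, T and NK markers were used, with exemptions between related classes. WT anti-PD1 had the lowest summed level in 8 of the 8 classes left with all 4 libraries. Cells with monocyte markers were not removed by this rule, and free RNA was not removed either, so neither is addressed by it.

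The makeup of the macrophage-like class also differed. Among clusters of cells found without the members, cluster 7, led by Retnla, Lpl and Ccl8, held 84.8% of the macrophage-like cells of WT anti-PD1 and 7.60% of those of WT IgG. Cluster 3, led by Grap2, Negr1 and Slamf9, held 9.29% and 67.3%. Ifit3 was among the leading genes of cluster 3 although no member had been used to find it. Within cluster 3 the summed level was lower by 0.57 on the log2 scale and 6 of 36 members were lower (4.56% of all genes). There 1 member, Cmpk2, was higher, at 236 against 105 CPM. Within cluster 7 the summed log2 ratio was -1.31 and 20 of 33 members were lower (4.14%), and within cluster 9 it was -0.79 with 14 of 35 lower (9.25%). Over the whole class it was -1.61 with 31 of 36 lower. For T-like cells, cluster 4, led by Tcf7 and Klra7, had 31 of 35 members lower (6.24%) and a summed log2 ratio of -1.92. Cluster 13, led by Frmd5 and Itgb8 and containing Foxp3 among its leading genes, had 29 of 34 lower (10.1%) and -2.05. Cluster 15, led by Gzmf, Ifitm1 and Prf1, had 9 of 27 lower (10.9%) and -0.98, and 1 higher, Ifit1bl1 on 58 against 10 UMIs. Fibroblast-like cells of cluster 6 had 26 of 29 lower (5.58%), neutrophil-like cells of cluster 14 had 26 of 32 lower (10.9%), and NK-like cells of cluster 10 had 11 of 22 lower (7.08%). Monocyte-like cells of WT anti-PD1 shared no cluster of at least 50 cells with WT IgG, so no value within a cluster could be given for them. The within-cluster values were added after the data had been seen.

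**Figure D4:**
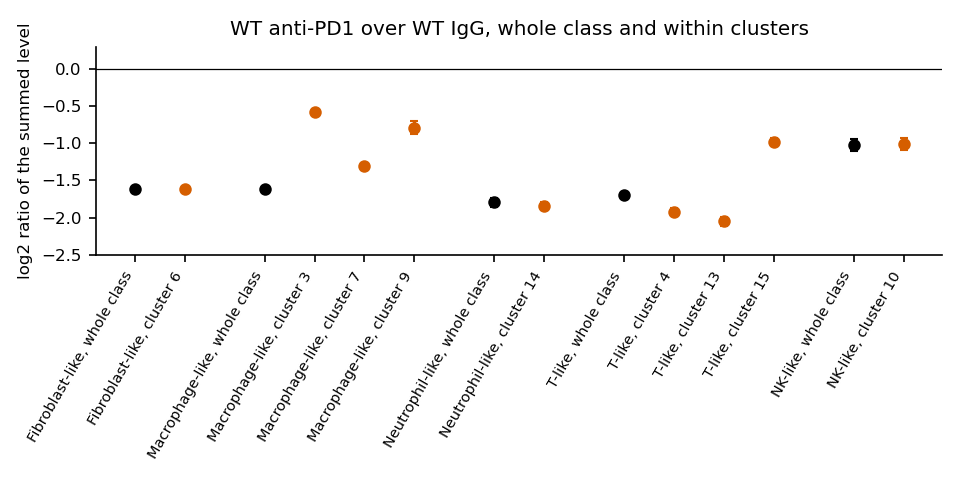
Summed log2 ratio of the members, WT anti-PD1 over WT IgG, for whole classes and for single clusters within a class that hold at least 50 cells in both libraries; bars are 95% counting intervals. All points lie below 0, and macrophage-like cells of cluster 3 are nearest to it at -0.57.

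Between genotypes under IgG the program differed little. Over 10 classes, 8 of 328 pairs were higher in A159V IgG by 2-fold or more, relative to WT IgG, and 3 were lower, where 3.01% of all pairs of a gene and a class were higher and 3.64% lower. This comparison shares WT IgG with the first one. Macrophage-like cells had 0 of 36 members past 2-fold in either direction (1.28% of all genes), and 34 of the 36 lay below 0 with a median of -0.21. Monocyte-like cells had 0 of 36 past 2-fold (0.88%), and 26 of 36 lay above 0 with a median of 0.13. Fibroblast-like cells had 0 of 31 (1.46%), T-like cells 0 of 35 (1.08%), CD8 T-like cells 0 of 33 (2.35%) and NK-like cells 0 of 26 (2.34%). The summed log2 ratio was -0.22 (-0.24 to -0.20) in macrophage-like, 0.11 (0.10 to 0.12) in monocyte-like and 0.09 (0.07 to 0.12) in T-like cells.

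Small classes carried nearly all of the pairs past 2-fold. Neutrophil-like cells, 90 and 86 cells, had 1 of 33 (21.4% of all genes), Ifit1bl1 on 17 against 4 UMIs, a log2 ratio of 2.05 (95% interval 0.53 to 3.57). Mature DC-like cells had 1 of 35 (15.9%), and CD4 T-like cells had 1 of 35 (12.1%). In both the gene was Oas1a, with 3 against 16 UMIs and 2 against 11 UMIs, log2 ratios of -2.12 (95% interval -3.78 to -0.47) and -1.78 (95% interval -3.80 to 0.24). Treg-like cells, with 53 cells in A159V IgG, had 7 of 35 members past 2-fold (12.2% of all genes in either direction), and all 7 were higher (4.56% of all genes). They were Ifit1bl1, Ifitm3, Ifit2, Oasl1, Slfn5, Rsad2 and Oas1a. Ifitm3 had 214, 31.7, 519.9 and 139 CPM in Treg-like cells, with a log2 ratio of 1.28 (95% interval 0.85 to 1.71), and Rsad2 had 103, 31.7, 226 and 64.2 CPM. Monocyte markers summed to 783, 874, 2531 and 1144 CPM in these cells, highest in the same library, and their part in the 7 differences was not tested. When only cells over 1000 genes were kept, A159V IgG was left with too few Treg-like cells to compare, and none of the pairs left in the non-overlapping classes was higher by 2-fold.

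Tumor-like cells had 1 of 28 members past 2-fold (4.89% of all genes), and it was Ifi27l2a. Its level was 170.1, 21.6 and 17.9 CPM on 10624 UMIs in WT IgG and 1902 UMIs in A159V IgG, a log2 ratio of -2.92 (95% interval -2.99 to -2.85). Both A159V libraries lay far below WT IgG. No other member of the tumor-like class differed as much. Next in order stood Dhx58 at -0.78 and Oas1a at -0.71, and at the upper end Rsad2 at 0.31 (95% interval 0.28 to 0.33) and Isg15 at 0.25 (95% interval 0.23 to 0.27). Rsad2 had 316, 391 and 414 CPM and Isg15 had 668, 796 and 692 CPM. Ifit1, Ifit3 and Oas3 had 89.5, 72.9 and 67.4 CPM, 87.2, 67.2 and 66 CPM and 50.6, 43.7 and 50.7 CPM. Zbp1 had 213, 218 and 247 CPM, Stat2 had 85.1, 56.2 and 66.2 CPM and Irf7 had 27.5, 24.2 and 21.4 CPM. The summed log2 ratio of the class was -0.13 (-0.14 to -0.13).

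The difference in Ifi27l2a coincided with a difference in the makeup of the tumor-like cells. Fibroblast markers summed to 409.7, 115 and 91.1 CPM in tumor-like cells, and cluster 8, led by collagen genes (Col6a2, Col3a1 and Col6a1), held 60% of the tumor-like cells of WT IgG, 8.83% of A159V IgG and 7.90% of A159V anti-PD1. Within cluster 8 Ifi27l2a was 274 CPM in WT IgG and 69.2 CPM in A159V IgG, a log2 ratio of -1.97. Within cluster 2 it was 43.1 and 16.4 CPM, a log2 ratio of -1.34, and within cluster 5 it was 109 and 19.4 CPM, a log2 ratio of -2.43. Ifi27l2a was thus below WT IgG by 2-fold or more in each of the 3 clusters, and by -2.78 on the log2 scale after cells with markers of another class were removed. In fibroblast-like and macrophage-like cells the ratio was 0.14 (95% interval 0.06 to 0.22) and -0.19 (95% interval -0.24 to -0.14).

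Under anti-PD1, A159V tumors showed a smaller difference from their own IgG library. Over 10 classes, 43 of 322 pairs (13.4%) were lower in A159V anti-PD1, relative to its IgG library, and 1 was higher, where 2.83% of all pairs of a gene and a class were lower and 4.16% higher. This comparison shares A159V IgG with the comparison of genotypes, and the difference between the WT and the A159V response could not be tested with 1 library a group. In monocyte-like cells 36 of 36 members lay below 0, with a median of -0.40, but 2 passed 2-fold (0.282% of all genes lower), Ifit3 at -1.08 (95% interval -1.15 to -1.0) and Ifit3b at -1.08 (95% interval -1.23 to -0.93). In macrophage-like cells 33 of 35 lay below 0, with a median of -0.34, and 0 passed 2-fold (0.401%). Irf7 had 619, 191, 602 and 405 CPM in macrophage-like cells, a log2 ratio of -0.57 (95% interval -0.66 to -0.48). The summed log2 ratio was -0.47 (-0.48 to -0.46) in monocyte-like and -0.32 (-0.34 to -0.30) in macrophage-like cells, against -1.09 (-1.13 to -1.06) and -1.61 (-1.63 to -1.59) in WT.

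Treg-like and CD4 T-like cells held most of the lower pairs. Treg-like cells had 14 of 35 lower (4.23% of all genes), led by Ifit2 at -1.94 (95% interval -2.77 to -1.12), Ifitm3 at -1.90 (95% interval -2.40 to -1.39) and Rsad2 at -1.80 (95% interval -2.55 to -1.05). Ifitm3 and Rsad2 were among the 7 members that stood higher in Treg-like cells of A159V IgG, the library shared by both comparisons. CD4 T-like cells had 13 of 34 lower (5.5%), among them Ifi44 on 3 against 12 UMIs and Isg15 at -1.46 (95% interval -1.83 to -1.09). With predicted doublets kept, Treg-like cells had 4 members lower and CD4 T-like cells 7, and Ifitm3 in Treg-like cells turned to 0.13. Fibroblast-like cells had 6 of 31 lower (3.32%), Rsad2, Isg15, Oas3, Oasl1, Bst2 and Irf7, with Isg15 at -1.35 (95% interval -1.48 to -1.22) on 709, 84.8, 819 and 321 CPM. These 6 became 1 with predicted doublets kept, where Rsad2 turned to 0.059, and 2 without cells that carried markers of another class. Mature DC-like cells had 5 of 34 lower (5.65%), and neutrophil-like cells had 3 of 33 (9.59%), the former on 30 UMIs or fewer for each gene in A159V anti-PD1 and the latter close to the share of all genes. T-like cells as a whole had 1 of 35 lower (0.502%), Ifi44, and CD8 T-like cells 0 of 33 (0.935%).

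Tumor-like and NK-like cells of A159V did not share the lower level. Tumor-like cells had 0 of 25 members lower (0.0382% of all genes), and their log2 ratios ran from -0.20 for Isg15 to 0.34 for Irf9. NK-like cells had 0 of 26 lower (0.763%) and 1 higher, Ifit1 on 60 against 34 UMIs, at 1.12 (95% interval 0.54 to 1.70). The summed log2 ratio of NK-like cells was 0.02 (-0.04 to 0.07). Isg15 in NK-like cells had 118, 15.3, 130.3 and 193 CPM, so that A159V anti-PD1 was the highest library and WT anti-PD1 the lowest.

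Members were also counted cell by cell. Each cell was thinned to 1500 UMIs, and the members with at least 1 UMI were counted. No class lacks the members, so the share of these UMIs that free RNA gives could not be measured and may differ between libraries. The median number in macrophage-like cells was 10, 4, 8 and 8, in monocyte-like cells 16, 8, 17 and 13, in T-like cells 7, 2, 7 and 6 and in NK-like cells 3, 1, 3 and 3. The share of cells with at least 5 members was 89.6%, 39.1%, 79.4% and 77% in macrophage-like cells and 69%, 15.3%, 83.3% and 47.9% in fibroblast-like cells. WT anti-PD1 had the lowest share in 6 of the 6 classes that kept at least 50 cells in all 4 libraries. In WT anti-PD1, 39.1% of macrophage-like cells (exact binomial interval 36.4% to 41.9%) had UMIs of at least 5 members, and 6.06% had none. In WT IgG 0.204% had none. Tumor-like cells had a median of 5, 5 and 5 members. Neutrophil-like cells of both IgG libraries were too shallow for this measure, and at 1000 UMIs WT anti-PD1 was lowest in 9 of 9 classes.

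**Figure D5:**
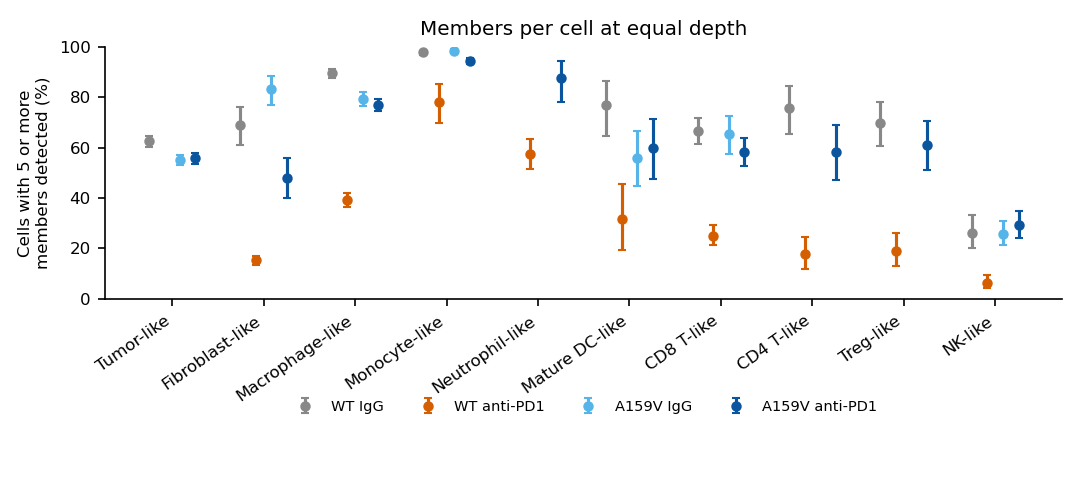
Share of cells, in percent, with at least 5 of the 36 members detected after thinning to 1500 UMIs, by class and library; bars are 95% exact binomial intervals and classes under 50 cells in a library are left out for it. In macrophage-like cells the share is 39.1% in WT anti-PD1 and 77.0% to 89.6% in the other libraries.

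Cells of 1 class differed among themselves in how much of the program they held. The variance of member UMIs over their mean at equal depth, which is 1 for purely random counts, was 10.9, 8.18, 12.2 and 9.17 in macrophage-like cells and 9.91, 11.4, 8.51 and 10.4 in monocyte-like cells. It was 4.23, 3.61 and 2.98 in tumor-like cells, lower than in either myeloid class. The mean number of member UMIs was 11.7, 9.95 and 9.76 in tumor-like and 40.1, 17.9, 43.2 and 30.8 in monocyte-like cells. Where cells differ, the ratio of variance to mean can rise with the mean, so it does not rank the classes by evenness. The tenth of macrophage-like cells with the most member UMIs held 25.3%, 35.7%, 28.2% and 26.8% of all member UMIs of the class. WT anti-PD1 was the highest library by that share and the lowest by variance over mean, and the share rises by itself where counts are fewer.

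The ligands were scarce. Over the 18 type I interferon genes looked for, 288, 181, 240 and 190 UMIs were found in 146, 66, 109 and 128 cells. These counts were not scaled to depth, and the libraries held 93030164, 54402632, 113779013 and 125227747 UMIs in all. Their order is therefore not an order of levels. Ifnz, an interferon zeta gene seen almost wholly in tumor-like cells, had 59, 3, 52 and 58 of the ligand UMIs, and WT anti-PD1 had few tumor-like cells. Ifnb1, the interferon beta gene, had 223, 176, 178 and 127 UMIs in 81, 61, 49 and 65 cells, and each interferon alpha gene had 4 UMIs or fewer in a library. In monocyte-like cells Ifnb1 had 20.3, 83, 12.1 and 9.70 CPM, highest in WT anti-PD1, where 49 UMIs came from 11 of 158 cells. Macrophage-like cells had 31, 69, 15 and 17 UMIs of Ifnb1. The library with the lowest level of the members was thus not the lowest for Ifnb1 in either of these 2 classes. In tumor-like cells Ifnb1 had 75 UMIs in WT IgG and, in A159V, 112 under IgG and 33 under anti-PD1. Ifnz had 56, 51 and 56 UMIs there. The protein of either ligand was not measured.

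Receptor genes had few pairs past 2-fold. Ifnar1 had 106, 105, 115 and 127 CPM in monocyte-like cells and 119.9, 80.1, 138 and 116 CPM in macrophage-like cells. Ifnar2 had 272, 273, 262 and 306 CPM in monocyte-like cells and 262, 235, 306 and 254 CPM in macrophage-like cells. Over the 9 classes, 3 of 41 pairs of a receptor gene and a class were higher in WT anti-PD1 and 2 were lower, relative to WT IgG, against 10.3% and 8.75% of all pairs. Jak1, a kinase bound to the receptor, had 502, 1161, 421 and 554 CPM in NK-like cells. In WT anti-PD1 over WT IgG, the genes for kinases and signal transducers had 5 of 43 pairs higher and 0 lower. The inhibitor genes, among them Socs1 and Socs3, had 4 of 52 pairs higher and 5 lower. These counts also stand against 10.3% higher and 8.75% lower of all pairs, and those of the inhibitors are near these shares.

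Other interferon-responsive genes were counted by the same rule. A longer list of 54 interferon-stimulated genes that are not members had 178 of 395 pairs lower and 1 higher in WT anti-PD1. By the same count, 31 genes led by interferon gamma, such as the guanylate-binding proteins and the antigen-processing genes Psmb8 and Tap1, had 39 of 229 pairs lower and 14 higher. The share of all pairs was 8.75% lower and 10.3% higher. In A159V anti-PD1 over A159V IgG the gamma-led genes had 3 of 244 pairs lower and 28 higher, against 43 of 322 lower and 1 higher among the members and, of all pairs, 2.83% lower and 4.16% higher. By class, 7 of 26 gamma-led genes were higher there in macrophage-like cells (1.03% of all genes), 8 of 26 in mature DC-like cells (7.42%), 3 of 28 in monocyte-like cells (0.803%) and 3 of 20 in tumor-like cells (0.134%). In A159V IgG over WT IgG they had 20 of 243 pairs lower and 3 higher, against 3.64% and 3.01% of all pairs. Interferon gamma itself, Ifng, had 693, 712, 115 and 586 UMIs in T-like cells. These counts were not scaled to depth, and the T-like cells held 3542600, 4485280, 1687620 and 3137910 UMIs in all. A159V IgG was the low library for Ifng also when set against these totals, and not WT anti-PD1. The order of the counts in the other libraries is not an order of levels. The difference between the lists was not tested.

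Likeness to the summed level was ranked over 46 profiles of a class in a library, which share libraries and depth and are given as a description. Oas2 (Spearman's rho 0.93), Ifit1 (0.92) and Isg15 (0.91) followed the sum most closely among the members, which are part of the sum themselves. Bst2 (0.53) and Ifi44 (0.28) had the lowest values of the 36 members. Of the 50 genes with the highest rho among 10817 genes, 24 were members and 10 belonged to the longer list. Outside all lists the 10 genes most like the sum were A930037H05Rik (0.82), AW011738, Trafd1, H3f3b, Slfn4, Chmp4b, Lgals8, Ccrl2, Tor1aip1 and Zswim4 (0.73).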

How the data were processed

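Single-cell RNA sequencing (10x Genomics, 3′ end) had been done on 4 libraries with 1 library a group. The deposited UMI counts per gene and cell were made by the authors with Cell Ranger against mm10, introns included according to their methods. The file headers name Cell Ranger 7.2.0, and the submitters' processing notes name 5.0.1. The correction for free RNA and the doublet removal of the study came after these files.

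Cells over 500 genes were kept. Doublets were predicted per library from simulated cell pairs, at 0.8% per 1000 cells, and removed. Cells were classed by markers, and clustering (Leiden) without the members served as a check. The members and all lists and markers were chosen with earlier results of these data known, and the gating rule was adjusted on class quality without looking at member values. The 36 members with a row are described by role, and up to 5 with the highest and 5 with the lowest log2 ratios in a class could be named. Ligands and receptors were named with at least 10 UMIs in 1 library of a class, and outside all lists the 10 genes most like the sum. A list of pathway genes is not reported here in full. Values within clusters and further members named for their contrast were chosen after the data were seen.

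UMIs were summed per class with at least 50 cells in a library and scaled to CPM. Intervals cover counting error only, at 95%. They are exact for levels (Poisson) and for shares of cells (binomial). For log2 ratios they are a normal approximation from Poisson counts, which is rough where a library has only a few UMIs. No test was made. Calculations of ratios were tested on simulated data. Alternatives changed the classing, doublets, gene minimum, mitochondrial limit, weighting, thinning, marker removal, scaling, pseudocount, minimum and fold. Python 3.11.15 was used with numpy 2.4.6, scipy 1.17.1, pandas 2.3.3, scikit-learn 1.9.0, igraph 0.11.9, leidenalg 0.10.2 and matplotlib 3.10.9.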

Additional observations from a re-analysis of the deposited data

Results flagged for a closer look

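In 4 cases a member had opposite signs under anti-PD1 in the 2 genotypes, with the WT log2 ratio past 2-fold. These differences between genotypes were not tested, since each group was 1 library. In CD8 T-like cells Ifitm3 had a log2 ratio of -2.60 in WT and 0.35 in A159V. In NK-like cells Isg15 had -2.87 in WT and 0.56 in A159V. In the same cells Ifit1 had -1.20 in WT and 1.12 in A159V, on 23 to 60 UMIs a library. Ifi35 in NK-like cells had -1.20 in WT and 0.59 in A159V.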

How the results depend on the processing

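No paired analysis was possible because each group held 1 library. Under the 7 alternatives that change cells or their weight, WT anti-PD1 had the lowest summed level in all classes with 4 libraries (6 to 10 classes). Over all alternatives 179 to 259 pairs of member and class were lower in WT anti-PD1, relative to WT IgG, against 228, with 0 higher. Of 3199 values of the 310 differences past 2-fold, 3032 kept their direction and stayed past the limit, 165 kept their direction under it and 2 reversed. Both reversals came with doublets kept, in A159V anti-PD1 over A159V IgG, where Rsad2 in fibroblast-like cells was 0.059 and Ifitm3 in Treg-like cells was 0.13. The cause of the changes was not tested, except that thinning and the 1000-gene minimum left fewer classes to compare.

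For A159V IgG over WT IgG, the 3 lower pairs became 6 by clusters, 5 with doublets kept, 5 at a limit of 10% mitochondrial UMIs, 10 with every cell weighed alike, 11 when thinned, 11 without cells with markers of another class, 6 with median-of-ratios scaling and 24 at 1.5-fold. The 8 higher pairs became 5 by clusters, 0 over 1000 genes, 4 with every cell weighed alike, 2 when thinned, 5 without cells with other markers, 16 with no minimum and 29 at 1.5-fold. For A159V anti-PD1 over A159V IgG, the 43 lower pairs became 18 with doublets kept, 14 over 1000 genes, 15 when thinned, 26 without cells with other markers and 97 at 1.5-fold. The 1 higher pair became 0 by clusters, without cells with other markers, with median-of-ratios scaling and with a pseudocount of 10, 3 with doublets kept and when thinned, 2 with every cell weighed alike and with no minimum, and 7 at 1.5-fold. The 11 members lower in NK-like cells of WT anti-PD1 became 17 with every cell weighed alike, 18 when thinned, 7 with a pseudocount of 10 and 18 with no minimum. Within single clusters the 31 lower members of macrophage-like cells became 6, 20 and 14 in clusters 3, 7 and 9, and the 26 of T-like cells became 9 in cluster 15.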

Other observations

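Within the tumor-like class, doublets included, WT anti-PD1 reached the 50 cells needed for a level, and the log2 ratio of the summed members over WT IgG was -0.60. Only 27 of these cells were not predicted doublets, and the others may hold RNA of other classes. The members that T-like cells of WT anti-PD1 kept nearest to WT IgG were Irf9, Stat2 and Ifit1bl1, at -0.13, -0.59 and -0.60 on the log2 scale. In neutrophil-like cells they were Oasl2, Stat2 and Irf9, at -0.37, -0.67 and -0.68. In macrophage-like cells they were Ifih1, Irf9 and Slfn5, at -0.16, -0.42 and -0.85.

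Interferon gamma-led genes were counted in single classes as well. In WT anti-PD1 over WT IgG, 12 of 26 were lower in CD4 T-like cells (8.26% of all genes) and 10 of 22 in fibroblast-like cells (5.94%), and 5 of 24 were higher in neutrophil-like cells (19.2%), close to the share of all genes. The 54 further interferon-stimulated genes had 28 of 48 lower in macrophage-like cells (6.57%), 31 of 45 in CD4 T-like cells (8.26%) and 6 of 38 in NK-like cells (7.1%).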
